A study of Mus musculus with 5 samples.

Results

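Polycomb repressive complex 2 (PRC2) was described through the RNA of 10 of its subunit genes in sorted mouse hair follicle stem cells. The genes were taken by symbol, with no rule on their values, although earlier results of these data were known. They were the catalytic subunits Ezh1 and Ezh2, the other core subunits Eed, Suz12, Rbbp4 and Rbbp7, and the accessory subunits Jarid2, Aebp2, Mtf2 and Phf19. All 10 were found among the 30840 features of the table, and all 10 passed the filter on low counts that left 22181 genes for testing. The libraries came from 3 PRC1 i2KO and 2 Control samples of back skin at postnatal day 70. PRC1 i2KO mice had the genotype K15-CrePR1:Ring1a-/-, Ring1bflox/flox, and Control mice were Ring1a-/-, Ring1bflox/flox without the Cre transgene. Both groups therefore lacked Ring1a, and both had 1% RU-486 applied to the skin on each of 10 days from postnatal day 50. CrePR1 is a Cre recombinase that RU-486 switches on, here in cells that use the keratin 15 promoter, so the libraries may include cells in which Ring1b was not deleted. From each sample 50000 cells were taken that carried EpCAM and CD34, were high for α6-integrin and lacked Sca1.

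PRC2 places methyl groups on lysine 27 of histone H3 (H3K27), a mark of silenced genes. Its core holds EZH1 or EZH2, which carry the methyltransferase domain, with EED, SUZ12 and one of the histone-binding proteins RBBP4 and RBBP7. Accessory subunits form a pair of alternative classes: PRC2.1 holds a Polycomb-like protein (PHF1, MTF2 or PHF19), and PRC2.2 holds JARID2 and AEBP2, both of which bind the PRC1 product H2AK119ub. Ezh2 is typical of dividing cells and Ezh1 of resting ones, and both act in the mouse hair follicle. The series asks how H2AK119ub relates to the quiescence of these stem cells, and the comparison here is the RNA of the PRC2 genes after loss of PRC1 against Control.

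Total counts lay between 25461650 and 43307694 in the PRC1 i2KO libraries and were 42916190 and 11626006 in Control 2 and Control 3. The bulge markers Krt15, Sox9, Lhx2, Cd34 and Lgr5 were present in all 5 libraries, none below 164 CPM (counts scaled to library size with TMM factors). By edgeR, 7.43% of all tested genes were higher and 3.51% lower at an unadjusted p under 0.05. Of the 11 bulge and basal markers listed, 0 passed edgeR's threshold, with 1 higher and 3 lower at that unadjusted p. Those lower were Cd34, at 298, 292 and 164 CPM in PRC1 i2KO against 477 and 326 CPM in Control, Lhx2, at 508, 559 and 409 against 659 and 718, and Lgr5, at 322, 315 and 382 against 449 and 471. The one higher was the basal keratin gene Krt14, at 1322, 1431 and 971 CPM in PRC1 i2KO against 695 and 832 CPM in Control. Summed CPM of 6 markers of interfollicular epidermis was 582, 2155 and 1174 in PRC1 i2KO 1, 2 and 3, against 562 and 581 in Control 2 and 3, and that of 6 fibroblast markers was 57.1, 65.9 and 48.0 against 23.7 and 21.1. Of other marker sums, the sebaceous one was 242, 205 and 247 CPM against 156 and 129, the Merkel cell one 4.03, 1.49 and 3.45 against 0.0609 and 0.238, and the melanocyte one 4.08, 3.77 and 6.55 against 9.03 and 7.06, while immune and endothelial sums overlapped between groups. Nearly all of the sebaceous sum came from Scd1, Fasn and Plin2, as Mc5r had 29 counts in PRC1 i2KO 2 and 0 in every other library. Ly6a (Sca1), absent from the sorted cells by gate, was at 3.12, 4.78 and 4.93 CPM against 1.62 and 0.793. The part of these cell types in the results was not tested. Of the fibroblast genes, Pdgfra was at 32.5, 25.4 and 16.0 CPM in PRC1 i2KO against 3.37 and 2.22 CPM in Control (edgeR adjusted p = 0.0502). Col1a1 was at 11.2, 19.7 and 7.88 CPM against 3.41 and 2.94. Col1a2, at 13.3, 20.3 and 20.8 CPM against 16.8 and 15.7, overlapped between groups. Dcn and Lum also overlapped, each at 3.13 CPM or less, and Col3a1 had 0 counts in 4 of the 5 libraries. Of the 4 Merkel cell markers in the table, Krt8 was at 3.35, 1.06 and 1.9 CPM in PRC1 i2KO against 0.0203 and 0.0793 CPM in Control. Sox2 was at 0.596, 0.293 and 0.348 CPM against 0 counts in both controls, while Krt20 had 0 counts in 4 libraries. Krt18 overlapped between groups. It was at 0.0917 and 0.0677 CPM in PRC1 i2KO 1 and 2, below the 0.159 CPM of Control 3, and PRC1 i2KO 3 lay above both controls. Krt8 was the largest part of the Merkel cell sum in each PRC1 i2KO library. The targeted gene Rnf2 (Ring1b) stood at 39.9, 33.1 and 36.4 CPM in PRC1 i2KO and at 27.7 and 37.5 CPM in Control, which overlap. In TPM it was at 16.8, 12.9 and 11.7 in PRC1 i2KO and at 25.1 and 24.4 in Control, with all PRC1 i2KO values below both Control values. Ring1 (Ring1a) stood at 2.29, 1.58 and 3.67 CPM in PRC1 i2KO and at 1.87 and 5.0 CPM in Control. Counts per gene mix exons that were deleted with those that were kept, and these values therefore do not check the labels. In bulk RNA, fewer cells that use a gene and less of its RNA per cell cannot be told apart.

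The promoters of 4 subunit genes are shown because 3 of them hold a match to the E2F element, the DNA element of the E2F factors that switch on cell cycle genes, and the fourth, Ezh1, is the partner of Ezh2 in the comparisons that follow. Each is the RefSeq window of build GRCm38.p6 from 250 bases before to 50 bases after the transcription start, 5′ to 3′ on the gene's strand, with the match in capitals. The letters searched were TTTCCCGC, TTTCGCGC, TTTGCCGC and TTTGGCGC on both strands.
Ezh2 (chr6:47594981-47595280, minus strand): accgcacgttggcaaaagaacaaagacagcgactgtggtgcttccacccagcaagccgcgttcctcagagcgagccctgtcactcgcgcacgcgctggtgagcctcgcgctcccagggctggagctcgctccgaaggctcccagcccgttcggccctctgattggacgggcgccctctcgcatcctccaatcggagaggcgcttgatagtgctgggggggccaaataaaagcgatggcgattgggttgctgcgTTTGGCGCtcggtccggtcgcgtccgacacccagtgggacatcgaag
Ezh1 (chr11:101226414-101226713, minus strand): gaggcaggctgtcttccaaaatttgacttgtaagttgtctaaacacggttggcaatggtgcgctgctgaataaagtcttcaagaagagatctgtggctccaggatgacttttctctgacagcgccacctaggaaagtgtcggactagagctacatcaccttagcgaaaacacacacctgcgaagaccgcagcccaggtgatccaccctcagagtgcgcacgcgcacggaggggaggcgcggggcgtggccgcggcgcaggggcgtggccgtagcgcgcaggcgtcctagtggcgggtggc
Suz12 (chr11:79992856-79993155, plus strand): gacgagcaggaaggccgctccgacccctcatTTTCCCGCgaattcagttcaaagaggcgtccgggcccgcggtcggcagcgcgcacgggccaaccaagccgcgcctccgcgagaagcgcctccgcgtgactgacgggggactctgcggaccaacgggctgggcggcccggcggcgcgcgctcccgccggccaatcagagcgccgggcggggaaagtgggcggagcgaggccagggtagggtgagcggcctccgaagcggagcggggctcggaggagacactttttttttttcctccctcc
Phf19 (chr2:34913927-34914226, minus strand): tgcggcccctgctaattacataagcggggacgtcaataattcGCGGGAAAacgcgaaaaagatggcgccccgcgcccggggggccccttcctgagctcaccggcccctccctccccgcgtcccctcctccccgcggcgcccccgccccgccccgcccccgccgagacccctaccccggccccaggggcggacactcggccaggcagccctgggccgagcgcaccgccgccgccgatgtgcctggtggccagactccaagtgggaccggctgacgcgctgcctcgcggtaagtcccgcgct

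In Ezh2 the match began 3 bases after the start, and in Suz12 and Phf19 it began 219 and 208 bases before it. A window matched in 2.26% of the 32851 mouse promoters searched, and in 3 of the 10 subunit genes, which have 14 windows among them. The windows of the other 7 genes, Ezh1, Eed, Rbbp4, Rbbp7, Jarid2, Aebp2 and Mtf2, do not hold these letters. The 4 printed windows are rich in CG pairs, with 31 in Ezh2, 23 in Ezh1, 41 in Suz12 and 38 in Phf19, where the median of all promoters was 7.0. A match is a run of letters and was not tested as a binding site.

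None of the 10 PRC2 genes passed the test between PRC1 i2KO and Control. By edgeR's quasi-likelihood test, 0 members were higher and 0 lower at an adjusted p under 0.05, where 0.126% of the 22181 tested genes were called higher and 0% lower. At an unadjusted p under 0.05 the count was again 0 and 0, against 7.43% of all genes higher and 3.51% lower. DESeq2 and limma-voom also called 0 members. The median log2 fold change of the 10 genes was -0.07, beside 0.01 over all tested genes, with 4 positive and 6 negative values (49.6% of all tested genes were negative). The 95% intervals of Ezh2 and Rbbp7, for example, reached up to a level 1.74 times that of Control, and rises below that size are within them. That of Ezh1 reached down to 0.438 times Control, and that of Phf19 spanned 0.0762 to 3.02 times Control, so falls are within them too.

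**Figure D1:**
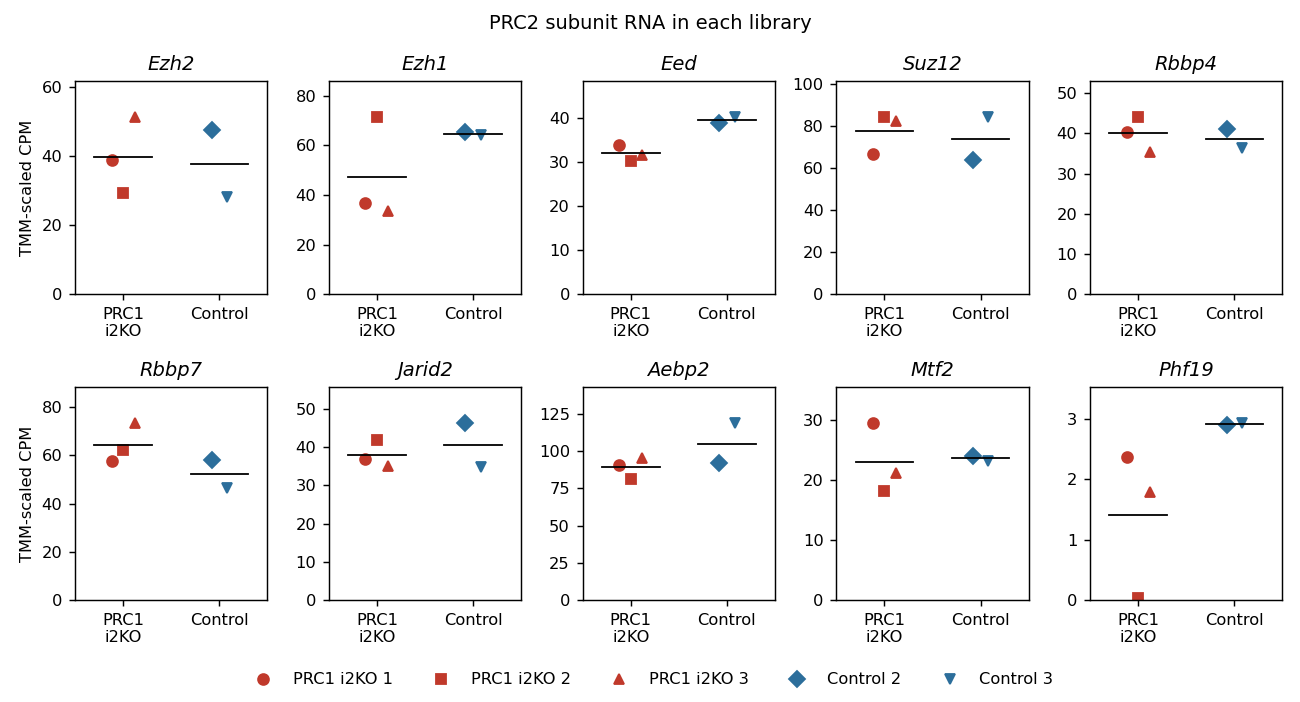
TMM-scaled CPM of each PRC2 gene (y axis, from 0) in the 3 PRC1 i2KO and 2 Control libraries, one symbol per library, with black lines at the group means. For Eed and Phf19 all PRC1 i2KO points lie below both Control points, and the groups overlap for the other 8 genes.

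The catalytic genes behaved unlike each other across the PRC1 i2KO libraries. Ezh1 (ENSMUSG00000006920.14) was at 36.9, 71.6 and 33.6 CPM in PRC1 i2KO 1, 2 and 3, against 65.4 and 64.0 CPM in Control 2 and 3. PRC1 i2KO 1 and 3 thus lay well below both controls and PRC1 i2KO 2 above both, so the groups overlap. The means were 47.3 ± 21.0 CPM in PRC1 i2KO (SD, n = 3) and 64.7 ± 0.956 CPM in Control (SD, n = 2), and the log2 fold change was -0.45 ± 0.33 (SE; edgeR adjusted p = 0.683). Without PRC1 i2KO 2 it was -0.88 ± 0.24 (adjusted p = 0.192, unadjusted p = 0.00516). Leaving out PRC1 i2KO 3 gave -0.25 (edgeR adjusted p = 0.815, unadjusted p = 0.454). Leaving out PRC1 i2KO 1 gave -0.30 (adjusted p = 0.854, unadjusted p = 0.420).

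Ezh2 (ENSMUSG00000029687.16) was at 38.7, 29.3 and 51.4 CPM in PRC1 i2KO 1, 2 and 3, against 47.4 and 28.0 CPM in Control 2 and 3. The controls alone spanned most of the range, and the groups overlap. Its log2 fold change was 0.07 ± 0.32 (edgeR adjusted p = 0.964) with a 95% interval from -0.65 to 0.80. The sign depended on single libraries: it was 0.51 without Control 2, -0.24 without Control 3 and -0.16 without PRC1 i2KO 3.

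Levels of different genes can be compared per transcript length, for which the deposited TPM values were used. In TPM, Ezh2 was at 32.5, 28.0 and 40.7 in PRC1 i2KO 1, 2 and 3, against 60.0 and 21.8 in Control 2 and 3, while Ezh1 was at 7.90, 24.4 and 8.84 against 33.6 and 21.9. The Ezh2 share of the summed TPM of both genes was 80.5%, 53.4% and 82.2% in the PRC1 i2KO libraries and 64.1% and 49.9% in the controls. PRC1 i2KO 1 and 3 held the highest shares, and PRC1 i2KO 2 lay between both controls. In CPM the Ezh2 to Ezh1 ratio of PRC1 i2KO 2 was 0.410, below the 0.725 and 0.437 of Control 2 and 3. On the log2 scale the Ezh2 to Ezh1 TPM ratio averaged 1.48 ± 1.11 in PRC1 i2KO (SD, n = 3) and 0.42 ± 0.60 in Control (SD, n = 2). The difference of 1.06 did not pass an exact two-sided permutation test (p = 0.400), and with 3 samples against 2 the smallest p this test can give is 0.200. It was 1.71 without PRC1 i2KO 2, 0.70 without PRC1 i2KO 3, 0.64 without Control 3 and 0.63 with CPM in place of TPM.

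The 2 libraries with the highest Ezh2 share, PRC1 i2KO 1 and 3, also had the most RNA of mitosis genes, while Control 2, next in Ezh2 share, had the least. Summed CPM of 24 mitosis genes was 505, 127 and 1092 in PRC1 i2KO 1, 2 and 3, against 78.1 and 122 in Control 2 and 3. All 24 had a positive log2 fold change, with a median of 2.82 beside 0.01 over all genes, but 0 passed edgeR's threshold. At an unadjusted p under 0.05, 15 were higher and 0 lower, against 7.43% and 3.51% of all tested genes. Mki67, which dividing cells express, was at 173, 38.1 and 404 CPM in PRC1 i2KO and at 13.2 and 34.0 CPM in Control. Among the mitosis genes with the smallest p, the transcription factor gene Foxm1 was at 16.8, 6.97 and 11.6 CPM against 1.02 and 1.75 CPM, and the cytokinesis gene Anln at 21.3, 15.7 and 61.4 CPM against 2.21 and 5.0 CPM (edgeR adjusted p = 0.134 and 0.150). The kinase gene Melk was at 8.52, 1.35 and 6.74 CPM in PRC1 i2KO, against 0 counts in Control 2 and 1 count in Control 3 (adjusted p = 0.139). Of 24 genes of DNA replication, 0 passed (5 higher and 0 lower unadjusted, against the same shares of all genes), with a median of 0.52. The smallest p among them belonged to the ribonucleotide reductase gene Rrm2, the helicase gene Mcm5 and E2f1, with log2 fold changes of 2.37, 1.99 and 2.58 (adjusted p = 0.197, 0.215 and 0.355). The epidermis marker sum given above was highest in PRC1 i2KO 2, where Ezh1 was high and the mitosis sum low. Mitochondrial ribosomal RNA was 29.7%, 21.4% and 32.0% of counts in PRC1 i2KO 1, 2 and 3, against 16.7% and 22.6% in Control 2 and 3. The part of these differences in the Ezh1 and Ezh2 values was not tested.

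**Figure D2:**
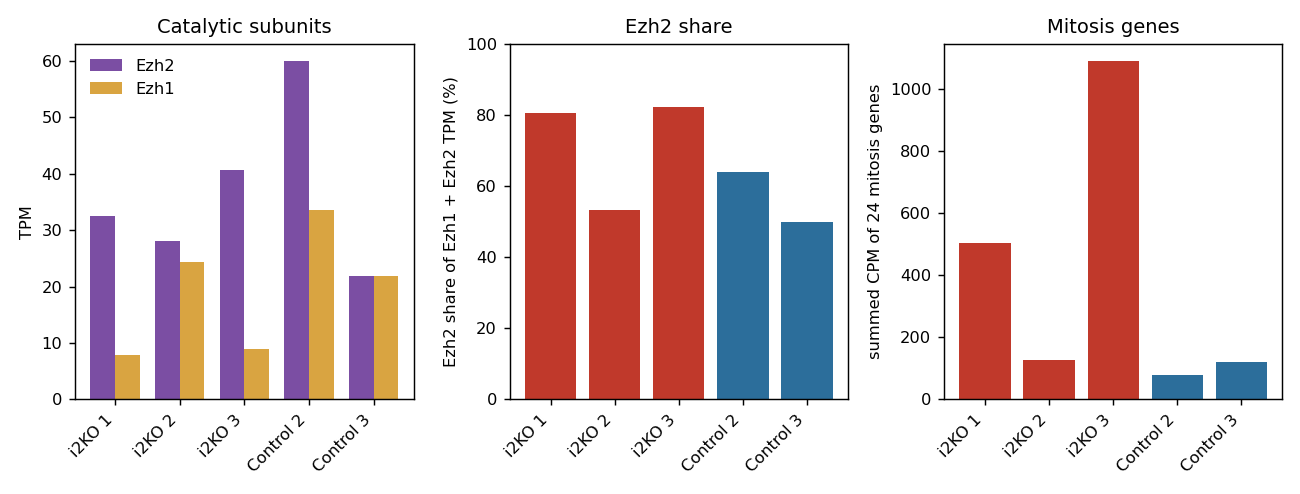
Deposited TPM of Ezh2 and Ezh1 (left), the Ezh2 share of their summed TPM in percent (middle) and the summed CPM of 24 mitosis genes (right) in each of the 3 PRC1 i2KO and 2 Control libraries. PRC1 i2KO 1 and 3 have the lowest Ezh1 TPM (7.90 and 8.84), the highest Ezh2 shares (80.5% and 82.2%) and the highest mitosis sums (505 and 1092).

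The genes most like each catalytic subunit were taken by the root mean square difference of log2(CPM + 1), centred on the 5 libraries, among 11287 other genes of at least 5 CPM on average. Nearest to Ezh1 were Lncpint, Snx29, Ccdc84, Ctps and Fam76a, at differences between 0.0514 and 0.0795. Lncpint, a long noncoding RNA, was at 20.7, 41.4 and 19.3 CPM in PRC1 i2KO 1, 2 and 3, against 40.8 and 36 CPM in Control. Nearest to Ezh2 were Tchp, Map3k12, Snhg1, Ints10 and Tmem39a, at differences between 0.0712 and 0.0966. The small nucleolar RNA host gene Snhg1 was at 86.3, 59.9 and 101 CPM in PRC1 i2KO and at 91.7 and 63.3 CPM in Control. None of these 10 genes belongs to the mitosis or replication lists. Those lists hold 24 genes each, and the measure depends on the size of a change. Their absence therefore cannot tell whether Ezh1 or Ezh2 followed the cell cycle genes, which was not tested. The likeness rests on 5 libraries.

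Of the remaining core genes, Eed had the PRC1 i2KO libraries below both controls. Eed (ENSMUSG00000030619.9), whose protein binds methylated H3K27 and stimulates the enzyme, was at 34.0, 30.2 and 31.7 CPM in PRC1 i2KO 1, 2 and 3, against 38.9 and 40.4 CPM in Control 2 and 3. The groups do not overlap and their means, 32.0 ± 1.93 CPM (SD, n = 3) and 39.6 ± 1.06 CPM (SD, n = 2), differed by more than either SD. The log2 fold change of -0.31 ± 0.22 did not pass (edgeR adjusted p = 0.681, 95% interval -0.82 to 0.20). In the reference annotation Eed overlaps Gm45120 on its own strand, so its value is uncertain to the extent that shared reads were split. Besides Eed, Phf19 was the other member with no overlap in CPM, so that 2 of 10 lay lower and 0 higher in all of PRC1 i2KO. Over all tested genes 15.3% lay lower and 14.6% higher in this way. Partner genes on the opposite strand overlap 8 members (all but Ezh1 and Aebp2), among them Sync for Rbbp4, Txlng for Rbbp7 and Tmed5 for Mtf2, and reads of such pairs cannot be told apart where counting ignored strand.

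Suz12 (ENSMUSG00000017548.15), the scaffold to which the accessory subunits attach, was at 66.7, 84.5 and 82.2 CPM in PRC1 i2KO, against 63.7 and 84.2 CPM in Control. Every level except PRC1 i2KO 2 fell within the span of the controls. Its log2 fold change was 0.08 ± 0.22 (edgeR adjusted p = 0.940), and -0.11 without Control 2.

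The paralogs Rbbp4 and Rbbp7, which PRC2 shares with the NuRD, SIN3 and CAF-1 complexes, did not pass the test. Rbbp4 (ENSMUSG00000057236.10) was at 40.4, 44.2 and 35.3 CPM in PRC1 i2KO, against 41.2 and 36.3 CPM in Control (log2 fold change 0.04 ± 0.23, edgeR adjusted p = 0.969). Rbbp7 (ENSMUSG00000031353.13) was at 57.5, 62.0 and 73.4 CPM in PRC1 i2KO, against 58.0 and 46.3 CPM in Control (0.30 ± 0.22, adjusted p = 0.687). For both genes the groups overlap, for Rbbp7 through PRC1 i2KO 1 and Control 2 alone. The Rbbp7 to Rbbp4 TPM ratio was 1.27, 1.96 and 3.26 in PRC1 i2KO 1, 2 and 3, against 1.68 and 1.81 in Control 2 and 3, a log2 difference of 0.21 (exact permutation p = 0.800). Without PRC1 i2KO 3 the difference was -0.14, so its direction rests on that library.

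**Figure D3:**
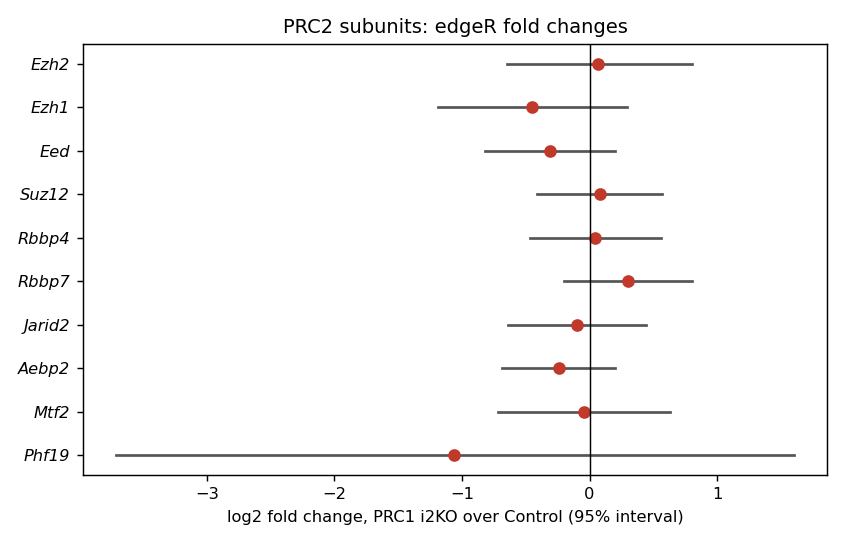
Log2 fold change of each PRC2 gene, PRC1 i2KO over Control, from edgeR (points) with 95% intervals (lines). All 10 intervals include 0, and that of Phf19, from -3.71 to 1.60, is the widest.

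The genes of the PRC2.2 class differed between groups by less than the spread between libraries. Aebp2 (ENSMUSG00000030232.18) was at 90.7, 81.2 and 95.1 CPM in PRC1 i2KO, against 92.0 and 119 CPM in Control. PRC1 i2KO 3 lay above Control 2, so the groups overlap, and the log2 fold change was -0.24 ± 0.20 (edgeR adjusted p = 0.720). Jarid2 (ENSMUSG00000038518.15) was at 37.0, 41.9 and 35.0 CPM in PRC1 i2KO, against 46.4 and 34.7 CPM in Control (-0.10 ± 0.24, adjusted p = 0.927). All PRC1 i2KO values of Jarid2 fell between both controls, and without Control 2 the log2 fold change was 0.13.

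Among the Polycomb-like genes, Phf19 was nearly missing from a single library. Mtf2 (ENSMUSG00000029267.17) was at 29.5, 18.1 and 21.2 CPM in PRC1 i2KO, against 24 and 23.2 CPM in Control. The PRC1 i2KO values lay on both sides of the controls (log2 fold change -0.04 ± 0.30, edgeR adjusted p = 0.976). Phf19 (ENSMUSG00000026873.9) had 52, 2 and 57 counts in PRC1 i2KO 1, 2 and 3, against 143 and 37 counts in Control 2 and 3. Scaled, these were 2.38, 0.0451 and 1.80 CPM in PRC1 i2KO and 2.90 and 2.94 CPM in Control, with all of PRC1 i2KO below both controls. The 2 counts of PRC1 i2KO 2 correspond to 0.0155 times the pooled level of both controls, with a 95% counting interval from 0.00186 to 0.0568 that covers counting error only. Its fitted log2 fold change was -1.06 ± 1.17 (adjusted p = 0.806), and -0.48 ± 0.77 without PRC1 i2KO 2 (adjusted p = 0.868). Its size also moved with other settings: it was -1.67 without PRC1 i2KO 1, -2.72 ± 1.24 by limma-voom (adjusted p = 0.408) and -1.92 by limma on log2(TPM + 0.1).

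The balance of the accessory classes was compared with Phf1, the remaining Polycomb-like gene, included. Phf1 was at 7.93, 14.2 and 17.9 CPM in PRC1 i2KO, against 20.6 and 20.5 CPM in Control (log2 fold change -0.62 ± 0.38, edgeR adjusted p = 0.609). Each PRC1 i2KO library thus lay below both controls, as for 15.3% of all tested genes in CPM. Summed TPM of Jarid2 and Aebp2 was 33.8, 42.7 and 37.6 in PRC1 i2KO 1, 2 and 3, against 62.5 and 42.7 in Control 2 and 3. Summed TPM of Mtf2, Phf19 and Phf1 was 18.6, 16.5 and 13.6 in PRC1 i2KO, against 36.7 and 20.8 in Control. The ratio of the PRC2.2 to the PRC2.1 sum was 1.82, 2.59 and 2.76 in PRC1 i2KO and 1.70 and 2.06 in Control. PRC1 i2KO 1 lay between both controls and the other two libraries above them, a log2 difference of 0.33 (exact two-sided permutation p = 0.400). This difference was 0.51 without PRC1 i2KO 1, 0.21 without PRC1 i2KO 3, 0.19 without Control 2 and 0.13 in CPM.

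By level per transcript length, 9 of the 10 genes stood close together and Phf19 far below. Mean TPM over the 5 libraries was highest for Eed (45.9), followed by Ezh2 (36.6), Rbbp7 (30.4), Aebp2 (26.0), Suz12 (23.4), Ezh1 (19.3), Jarid2 (17.8), Rbbp4 (16.1) and Mtf2 (13.8). Phf19 averaged 0.705 TPM. The TPM ranges of all neighbours in this order overlap except those of Mtf2 (6.88 to 24.6) and Phf19 (0.0153 to 1.24). Eed ranked first in 4 of the 5 libraries and Phf19 last in all 5. Ezh1 ranked 9, 5 and 8 in PRC1 i2KO 1, 2 and 3, against 4 and 5 in Control 2 and 3. By mean TPM, Eed exceeded 94.2% of the tested genes and Phf19 exceeded 23.7%.

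**Figure D4:**
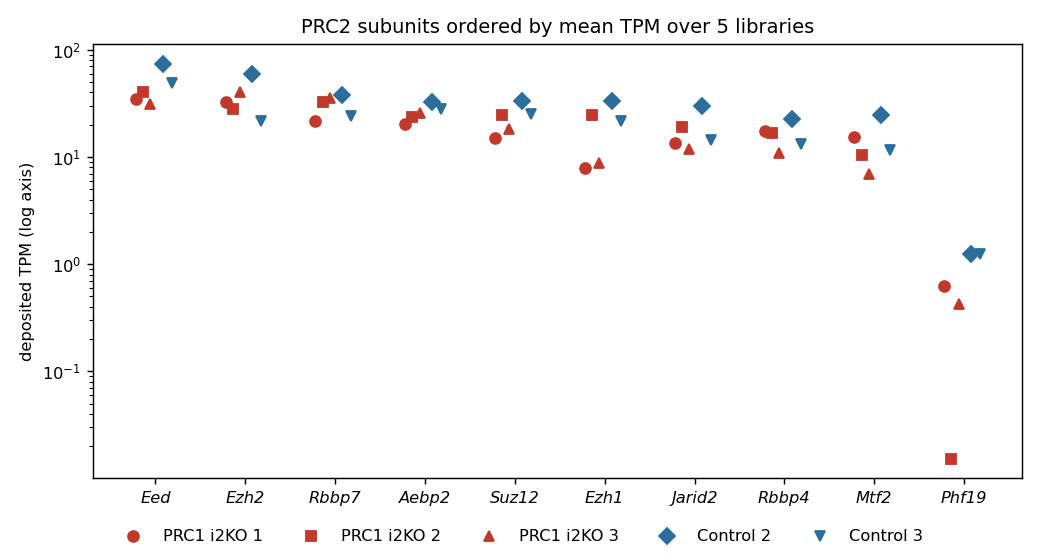
Deposited TPM of each PRC2 gene (y axis, log scale) in the 3 PRC1 i2KO and 2 Control libraries, with genes ordered by their mean over the 5 libraries. The ranges of neighbouring genes overlap except between Mtf2 and Phf19, and the lowest point is Phf19 in PRC1 i2KO 2 at 0.0153 TPM.

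The deposited TPM values gave lower levels in PRC1 i2KO than the counts did. Summed TPM of the 10 genes was 179, 220.0 and 190.3 in PRC1 i2KO, against 350.1 and 211 in Control, with a log2 difference of -0.47 (exact two-sided permutation p = 0.400). In TPM, Eed, Suz12, Aebp2 and Phf19 had all PRC1 i2KO values below both Control values, which is 4 of 10 members, where 23.0% of all tested genes had this order and 7.01% the opposite one. In TPM, Suz12 was at 15.1, 24.7 and 18.3 in PRC1 i2KO against 33.5 and 25.4 in Control, and Eed at 34.5, 40.3 and 31.2 against 74.2 and 49.2. By limma on log2(TPM + 1), the log2 fold change was -0.77 for Eed and -0.60 for Suz12 (adjusted p = 0.434 and 0.530), and 0 members passed. At an unadjusted p under 0.05, 2 of 10 were lower by that test, Eed and Phf19, and 0 higher, where 8.03% of all tested genes were lower and 2.61% higher. The median log2 fold change on that scale was -0.55 for the 10 genes and -0.19 over all tested genes. With 0.1 added to TPM in place of 1, these medians were -0.57 and -0.33, so the gap between them depends on the value added.

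Within a library, count and TPM differ between genes through the transcript length that the quantification assigned to each gene. Between libraries, CPM also carries TMM factors, which the deposited TPM does not. These were 0.8577, 1.025 and 0.9127 in PRC1 i2KO 1, 2 and 3, against 1.149 and 1.085 in Control 2 and 3. The part of length and of scaling in the lower TPM levels was not tested. The implied transcript length was set beside its Control mean for the 9 members with at least 50 counts in every library. It was 1.42, 1.15 and 1.24 times the Control mean for Ezh1 in PRC1 i2KO 1, 2 and 3, against 0.949 and 1.05 in Control 2 and 3. For Suz12 it was 1.28, 1.26 and 1.39, against 0.874 and 1.13. Ezh1 and Suz12 were the 2 members whose implied length was above both Control values throughout PRC1 i2KO, and 21.7% of 11079 genes had such values. Mtf2 ranged most, from 0.976 to 1.68 in PRC1 i2KO, against 0.790 and 1.21 in Control. For Ezh2 the values were 0.856, 0.970 and 0.976, within or below the 0.908 and 1.09 of the controls. Isoforms were not analysed here.

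**Figure D5:**
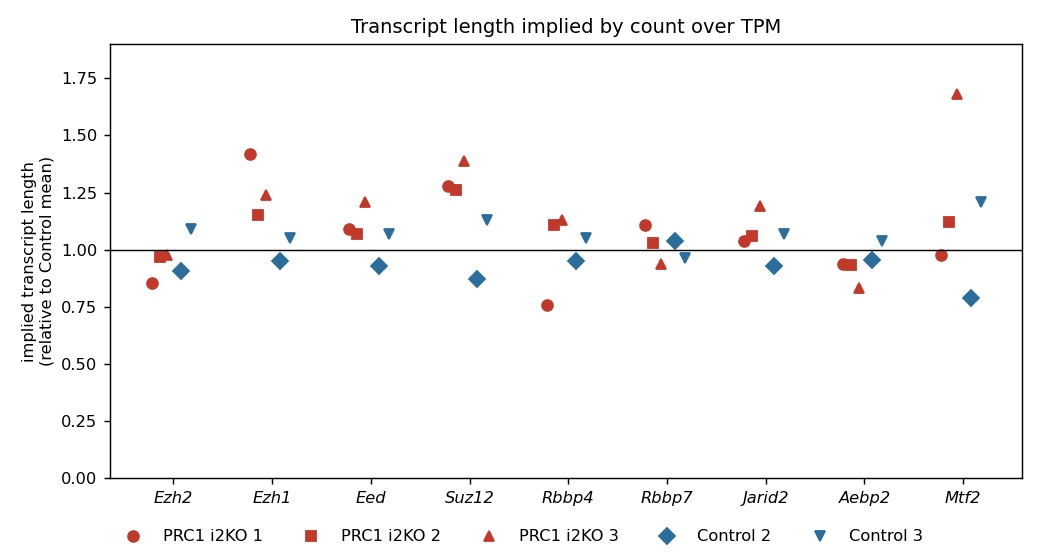
Transcript length computed as count over TPM for 9 PRC2 genes (y axis, relative to the Control mean, line at 1) in the 3 PRC1 i2KO and 2 Control libraries. Ezh1 and Suz12 have all PRC1 i2KO libraries above both controls, and Mtf2 in PRC1 i2KO 3 is highest at 1.68.

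Other PRC2-associated genes and enzymes acting on the same histone residue also had no call by edgeR. Of the 4 further subunit genes in the table, 3 had negative log2 fold changes (49.6% of all tested genes were negative) and 0 passed. Lcor, listed as a gene of an accessory subunit of PRC2.1, was at 29.2, 36.6 and 27.5 CPM in PRC1 i2KO, against 45.4 and 37.9 CPM in Control (-0.42 ± 0.25, adjusted p = 0.589). Each PRC1 i2KO library was thus below both controls in CPM, an order that 15.3% of all tested genes had. In TPM the groups overlap for Lcor, at 7.58 in PRC1 i2KO 2 and 7.26 in Control 3. Its relative Lcorl was at 16.9, 23.3 and 28.6 CPM in PRC1 i2KO, against 24.8 and 27.7 CPM in Control. Epop, a further PRC2.1 partner, was at 0.321, 6.07 and 4.08 CPM in PRC1 i2KO, against 4.16 and 1.98 CPM in Control, lowest in PRC1 i2KO 1.

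The H3K27 demethylase genes Kdm6a and Kdm6b had log2 fold changes of 0.03 ± 0.21 and -0.10 ± 0.26 (edgeR adjusted p = 0.976 and 0.928). The H3K27 acetyltransferase genes Crebbp and Ep300, whose product competes with methylation for the same residue, had -0.19 ± 0.16 and 0.06 ± 0.19 (adjusted p = 0.719 and 0.943). Crebbp was lower in each PRC1 i2KO library, at 478, 497 and 400.4 CPM, than in Control, at 529.8 and 520.0 CPM. In CPM 15.3% of all tested genes had this order. In TPM the groups overlap for Crebbp, at 64.6 in PRC1 i2KO 2 and 53.7 in Control 3.

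Of 18 genes for partners of RBBP4 and RBBP7 in other complexes, 0 passed edgeR's threshold. At an unadjusted p under 0.05, 2 were higher and 0 lower, against 7.43% and 3.51% of all tested genes. Of the 18, 12 had a positive log2 fold change, and the median was 0.34. In CPM, 5 of the 18 had all PRC1 i2KO values above both Control values and 0 had them below, where 14.6% of all tested genes lay above and 15.3% below. In TPM the counts for the 18 were 1 above and 2 below. The NuRD remodeller gene Chd3 was at 42.2, 33.4 and 56.8 CPM in PRC1 i2KO, against 24.8 and 24.4 CPM in Control (0.84 ± 0.28, adjusted p = 0.325). Mta3, also of NuRD, was at 79.8, 83.3 and 77.9 CPM against 51.1 and 57.9 CPM (0.56 ± 0.19, adjusted p = 0.331). Mbd3, the NuRD scaffold gene, was at 44.7, 44.7 and 51.8 CPM against 36.1 and 31.3 CPM (0.48 ± 0.22, adjusted p = 0.485).

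Of 5 genes for H3K36 methyltransferases, whose mark hinders PRC2, 0 passed and the median was 0.10. At an unadjusted edgeR p under 0.05, 1 was higher and 0 lower, against 7.43% and 3.51% of all tested genes. Nsd2 was at 46.5, 48.2 and 53.5 CPM in PRC1 i2KO, against 31.1 and 37.6 CPM in Control (0.52 ± 0.22, edgeR adjusted p = 0.442). Ash1l had a log2 fold change of -0.14 and Nsd1 one of 0.12 (adjusted p = 0.786 and 0.842).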

How the data were processed

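Polyadenylated RNA of 5 samples was sequenced on an Illumina HiSeq, per the labels' protocols, and each gene's expected count and TPM value per sample stand in 1 table deposited by the authors. RSEM 1.3.3, STAR 2.7.9a, the build mm39 and DESeq2 1.38.2 are listed, without roles, per the submitters' processing notes. The use of strand in counting is not given in these sources. The deposited expected counts were rounded. TPM, as deposited, corrects for transcript length and has the same sum in each sample.

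The test was edgeR 4.0.16's quasi-likelihood F test (R 4.3.3) after filterByExpr and TMM scaling, with no term besides group and Benjamini-Hochberg adjusted over all 22181 tested genes at a threshold of 0.05. CPM uses TMM-scaled library sizes, in which 1 count stood for 0.0203 to 0.0793 CPM. A fold change is given ± SE. Standard errors and 95% intervals were taken from the F statistic. The scripts were tested on simulated counts. Alternatives were DESeq2 1.42.0 and its size factors, limma-voom and limma on log2(TPM) (limma 3.58.1), no filter, fits without mitochondrially encoded genes, replicate blocks and each library left out. Ratios of TPM were compared by exact permutation over samples.

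Implied length is count over TPM, scaled in each library by its median over 1475 genes with a single annotated transcript. Overlaps and transcript numbers come from GENCODE M21 (GRCm38), and since the notes name mm39, coordinates are given for the RefSeq promoter windows alone.

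The members and gene lists were chosen with earlier results of these data known. All 10 members are described, with every gene of the small PRC2 and H3K27 lists, the 3 genes of smallest p in each other functional list, Mki67, and the 5 nearest genes to Ezh1 and Ezh2. Cell type markers named with values were chosen after those were seen. Ezhip and some markers were not analysed here. Separate animals for the samples of a group are not stated by the labels, and p-values then measure only the spread between samples, possibly a technical one.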

Additional observations from a re-analysis of the deposited data

How the results depend on the processing

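No member was called higher or lower by edgeR, DESeq2, limma-voom or limma on TPM, under any of the 15 alternatives, and the smallest adjusted p among their 150 values was 0.192 (Ezh1 without PRC1 i2KO 2). The median log2 fold change of the 10 genes was -0.06 with no filter, by DESeq2 and without mitochondrially encoded genes, -0.15 by limma-voom, -0.55 and -0.57 by limma on log2(TPM + 1) and log2(TPM + 0.1), and -0.40 on log2(TPM + 1) rescaled without mitochondrially encoded genes, a setting chosen after seeing the data. With libraries left out in turn it ranged from -0.17 to -0.06. The cause was not tested. Over all tested genes, the median was -0.33 on log2(TPM + 0.1) and -0.12 on the rescaled TPM. Calls over all genes, 28 higher and 0 lower in the report, were 140 and 12 by edgeR with no filter and 745 and 163 by DESeq2, both over 30633 genes in place of 22181, 4 and 0 by limma-voom, 2 and 1, 7 and 5, and 3 and 1 on the TPM scales in the order above, and between 4 and 39 higher and 0 and 4 lower with each library left out. Signs turned in 20 of the 150 values. Ezh2 was -0.10 by limma-voom and -0.12 on both TPM scales. On log2(TPM + 1), log2(TPM + 0.1) and the rescaled TPM, Suz12 was -0.60, -0.62 and -0.45 and Rbbp4 was -0.23, -0.24 and -0.08, while Rbbp7 was -0.03 on the first and the second. With each library left out, Ezh2 ranged from -0.24 to 0.51, Suz12 from -0.11 to 0.30, Rbbp4 from -0.04 to 0.14, Jarid2 from -0.28 to 0.13, Mtf2 from -0.26 to 0.10 and the Rbbp7 to Rbbp4 difference from -0.14 to 0.54.

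The titles number the controls 2 and 3 and the descriptions number them 1 and 2, so a replicate block was fitted by each. By title number, deviations from the group means correlated at 0.095 for the pair numbered 2 and 0.064 for the pair numbered 3. By description they correlated at -0.033 and -0.095. Deviations of 2 controls from their mean mirror each other, so 0.095 and -0.095, both of PRC1 i2KO 2, are the same value with its sign turned. The samples thus share a number and nothing more was shown. With the replicate block by title the median of the members was -0.16 and 140 genes were called higher and 25 lower, against 28 and 0 without it; by description Ezh2 was -0.11, and 10 and 0 genes were called. Phf19 was -2.93 with the block by title and -2.74 by description, against -1.06 without it. A library whose number no other library shares does not inform the group difference in such a fit. That library was PRC1 i2KO 1 where titles gave the number and PRC1 i2KO 3 where descriptions gave it. The block fits and their calls thus rest on fewer libraries than the fit without a block. Both kept PRC1 i2KO 2, which had 2 counts of Phf19. No block gave a call for a member. Control 3 was the shallowest library, in which 1 count stood for 0.0793 CPM.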
